A study of Mus musculus with 2148 samples.

Results

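Described here are 248 single medullary thymic epithelial cells from adult mice that lack a working Aire gene, divided by whether Aire RNA could still be read in them. The cells were chosen by their own Aire reads: of the 338 adult Aire-KO mTEChi cells, 127 held 10 or more Aire reads (cells with Aire reads), 121 held 0 (cells without Aire reads) and 90 held 1 to 9 (cells with few Aire reads, left out of the comparison). The whole series holds 1980 cells. All 338 cells came from 5-week-old male C57BL/6 mice of genotype AireKO, so every compared cell carries the same mutation, and they were sorted from CD45-depleted thymus as live CD45- EpCAM+ Ly51- cells with high MHC class II. Each was sequenced by RamDA-seq, a full-length total RNA method that uses random as well as oligo(dT) primers. The labels spread them over exp. batches 7, 8, 13 and 14 and name no mouse, so p-values below measure the spread between 4 batches, which may be technical. The sources used here do not give which bases of Aire were altered, and the counts are per gene, so which exons the Aire reads came from was not analysed here.

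Aire is a chromatin-associated regulator that lets medullary thymic epithelial cells (mTECs) express a large number of genes otherwise restricted to peripheral tissues, so that developing T cells meet those antigens in the thymus. It is switched on late in mTEC maturation, in cells high in MHC class II and CD80, downstream of RANK, CD40 and the NF-kB factor RelB. After that stage mTECs can turn into cells resembling keratinocytes, enterocytes, tuft cells and other peripheral types. In Aire-KO mice the locus can still be transcribed although no functional protein is made. The comparison addresses which other genes differ between mutant cells that do and do not transcribe Aire.

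Aire lies on chromosome 10 (GRCm38, chr10:78030022-78043610, minus strand) and its 5′ end overlaps that of Dnmt3l (chr10:78041947-78063622, plus strand) by 1664 bases. The sequences around the annotated starts of both genes are shown because these are the ends that share the locus; each runs 5′ to 3′ on its gene's own strand, from 250 bases before to 50 bases after the start (RefSeq, GRCm38.p6), and capitals mark the letters TATAAA.
Aire, chr10:78043561-78043860, minus strand: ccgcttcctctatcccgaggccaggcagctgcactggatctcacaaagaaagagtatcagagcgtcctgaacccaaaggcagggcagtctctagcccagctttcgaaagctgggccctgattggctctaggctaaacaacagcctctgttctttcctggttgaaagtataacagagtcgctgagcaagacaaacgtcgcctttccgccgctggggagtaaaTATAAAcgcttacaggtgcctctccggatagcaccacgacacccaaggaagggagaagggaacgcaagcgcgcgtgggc
Dnmt3l, chr10:78042037-78042336, plus strand: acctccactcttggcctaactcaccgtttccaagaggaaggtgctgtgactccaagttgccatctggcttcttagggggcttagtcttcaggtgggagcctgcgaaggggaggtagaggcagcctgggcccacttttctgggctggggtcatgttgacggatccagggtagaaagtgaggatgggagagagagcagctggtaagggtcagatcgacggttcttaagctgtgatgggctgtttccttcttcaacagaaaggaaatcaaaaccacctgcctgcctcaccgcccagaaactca
The letters TATAAA, searched on both strands, were found in the Aire window and not in the Dnmt3l window. The Dnmt3l window is placed on a RefSeq start that lies inside the gene span given above. It therefore does not hold the first base of that span, from which the overlap was counted. They occur in 13.6% of the 32851 windows of the same length around annotated starts.

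Aire transcript was unevenly spread over the Aire-KO mTEChi cells. The highest count was 745 reads, 14 cells held 100 or more, and the 10 cells with the most reads held 44.3% of the 7656 Aire reads in all. The cells with Aire reads had medians of 26, 32, 28 and 18 Aire reads in exp. batches 7, 8, 13 and 14. The limit of 10 reads falls within a continuous range, with 10 cells at 9 reads just outside it and 4 cells at 10 reads just inside it. The share of cells with 10 or more reads was 40.7% (95% exact binomial interval 29.9 to 52.2) in batch 7, 31.4% (21.8 to 42.3) in batch 8, 47.1% (36.3 to 58.1) in batch 13 and 31.0% (21.3 to 42.0) in batch 14; the intervals cover counting error only and overlap between all 4 batches. Batches 7 and 13, with the higher shares, were also the deeper ones. After each cell was thinned to 200000 reads, the share with any Aire read was 56.8, 47.7, 63.2 and 40.5% in exp. batches 7, 8, 13 and 14, so batches 7 and 13 remained the higher ones.

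**Figure D1:**
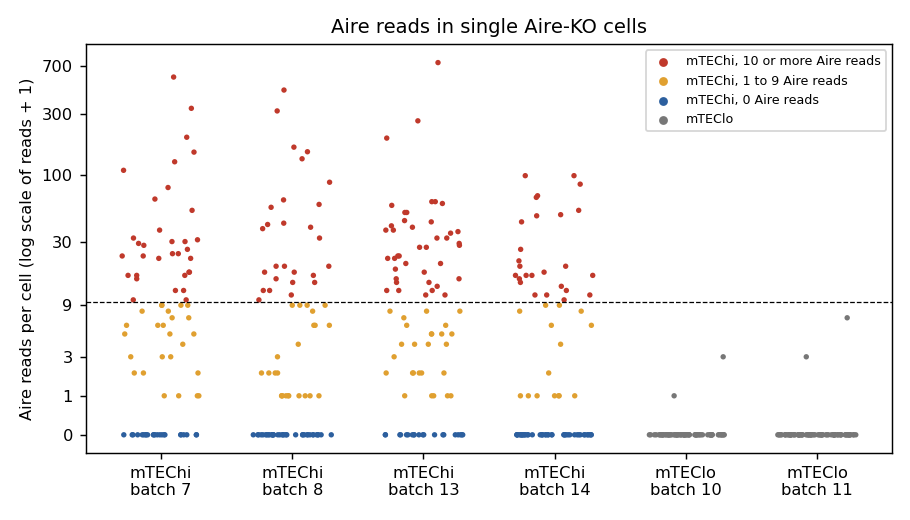
Aire reads in each Aire-KO mTEChi cell (exp. batches 7, 8, 13 and 14) and each Aire-KO mTEClo cell (exp. batches 10 and 11), on a log scale of reads + 1; the dashed line separates 9 from 10 reads. The mTEChi cells spread from 0 to 745 reads, whereas 150 of the 154 mTEClo cells lie at 0.

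In Aire-KO mTEClo cells, the MHC class II low sort of the same genotype, 150 of 154 cells held no Aire read, 4 held 1 to 9, and 0 of 154 held 10 or more, which allows a share of up to 1.95%. The median depth was 532926 reads in these cells, lower than in the Aire-KO mTEChi cells. In adult WT mTEChi cells, by contrast, 602 of 620 held 10 or more Aire reads and 0 of 620 held none, with a median of 754.5 reads per cell. The Aire-KO mTEClo cells came from male mice of 5 weeks, as the mTEChi cells did, whereas the WT mTEChi cells came from mice of 4, 5 and 6 weeks, male except for 1 batch, so age differs beside genotype. Because 0 of 620 adult WT mTEChi cells lacked Aire reads, the split into cells with and without them could be made only in the mutant. Summed over cells, Aire reached 61.3, 107, 53.5 and 55.6 CPM (a gene's count scaled to the total reads of its sum) in the mutant cells with Aire reads of exp. batches 7, 8, 13 and 14, against 870 to 1790 CPM over the 9 adult WT mTEChi batches.

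Read depth was close in both classes. Over all genes the Aire-KO mTEChi cells held between 216088 and 1630479 reads, with a median of 812728.5. The median depth of cells with Aire reads was 1122099, 618758, 1091971 and 618026.5 reads in exp. batches 7, 8, 13 and 14. In cells without Aire reads it was 1157471, 594348, 1126152.5 and 712261 reads. Cells with Aire reads were thus shallower in 3 of the 4 batches, with an average difference (with minus without Aire reads) of −34844.5 reads (SD 48438.9, n = 4, exact permutation test over the batch medians, 2-sided p = 0.25; 4 pairs cannot give less than 0.125). Detected genes per cell were likewise close, with batch medians averaging 12368 (SD 460, n = 4) with and 12386.5 (SD 595, n = 4) without Aire reads (exact permutation p = 1). The difference changed sign between batches, from 878 in batch 13 to −1303.5 in batch 14.

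Across the genome, reads were summed over the cells of each class in each batch and compared in pairs within batches with edgeR's quasi-likelihood test, leaving Aire itself out. Of 25889 genes tested, 100 (0.386%) rose and 74 (0.286%) fell in cells with Aire reads at an adjusted p under 0.05, together 0.672% of the genes. Over all 25889 tested genes, called or not, the median log2 fold change was 0.02. With no adjustment, 11.6% of all tested genes were higher and 8.66% lower at p under 0.05. The 4 sums with Aire reads lay wholly above the 4 without for 7.11% of all tested genes and wholly below for 7.72%. Each of the 100 genes that rose did so in 4 of 4 batches, and 72 of the 74 that fell did so in 4 of 4. The number of calls rests on all 4 batches and on the limit of 10 reads. Without exp. batch 7, 8, 13 or 14 no gene passed the adjusted threshold, although the called genes that could still be tested (173 or 174) all kept their direction and an unadjusted p under 0.05. With limits of 1, 5 or 20 Aire reads in place of 10, the genes that rose and fell numbered 8 and 9, 3 and 2, and 2 and 9, and with a limit of 20 Aire CPM 235 and 180, which included 162 of the 174. Among cells of 600000 or more reads 0 rose and 1 fell. All 174 genes kept their direction under each of these limits. These fits, like those with a batch left out, share cells with the fit that chose the genes. A kept direction was therefore likely and is not independent support. Calls were also lost when 10 cells with and 48 cells without Aire reads that were rich in keratinocyte or cell cycle reads were left out, a choice made after the values were seen. By edgeR 0 genes then passed and 4242 had an unadjusted p under 0.05, while 162 of the 167 called genes still tested kept an unadjusted p under 0.05.

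Among the named genes that rose were several with known roles in nerve, muscle and gut. Gria1, an AMPA-type glutamate receptor subunit, had the largest rise of those named. Its summed level was 48.7, 87.2, 34.9 and 43.5 CPM in cells with Aire reads of exp. batches 7, 8, 13 and 14, and 2.17, 1.89, 4.01 and 1.04 CPM in cells without. The 2 sets do not overlap, and the log2 fold change was 4.73 ± 0.53 (adjusted p = 0.0453). Values after ± are an approximate SE derived from the test statistic. Reads of Gria1 were found in 68.5% of the cells with Aire reads, 43.3% of those with few and 14.9% of those without.

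Ryr3, an intracellular calcium release channel of muscle and brain, stood at 232, 296, 151 and 96.3 CPM in cells with Aire reads and at 18.9, 15.2, 23.6 and 10.1 CPM in cells without, in the same batch order. All 4 values with Aire reads lay above all 4 without (log2 fold change 3.56 ± 0.30, adjusted p = 0.0361). Myot, which encodes the sarcomere protein myotilin, gave 89.0, 99.2, 48.6 and 35.5 CPM against 11, 12, 5.83 and 3.49 CPM (3.21 ± 0.19, adjusted p = 0.0361). For both genes exp. batch 8 was the highest with Aire reads and batch 14 the lowest, and the classes did not overlap.

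Itln1, intestinal intelectin, a lectin that binds microbial sugars, measured 71.8, 40.3, 38.0 and 46.7 CPM in cells with Aire reads and 8.71, 5.72, 7.70 and 2.83 CPM in cells without. The classes did not overlap (log2 fold change 3.14 ± 0.37, adjusted p = 0.0465). Fbln5, an elastic fibre protein, rose from a mean of 2.27 to 45.1 CPM (4.48 ± 0.56, adjusted p = 0.0465). Cadm3, a cell adhesion molecule of neurons, rose from 5.17 to 38.1 CPM (3.00 ± 0.29 in log2 units, adjusted p = 0.0361). Lix1, Zfp872, Hdx and the long noncoding RNA Rmst rose by log2 fold changes between 2.99 and 3.38, the Rmst levels overlapping between the classes. Ccdc87 was read in the fewest cells, 32 of 127 with and 14 of 121 without Aire reads, and its levels also overlapped (3.21 ± 0.41, adjusted p = 0.0487).

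**Figure D2:**
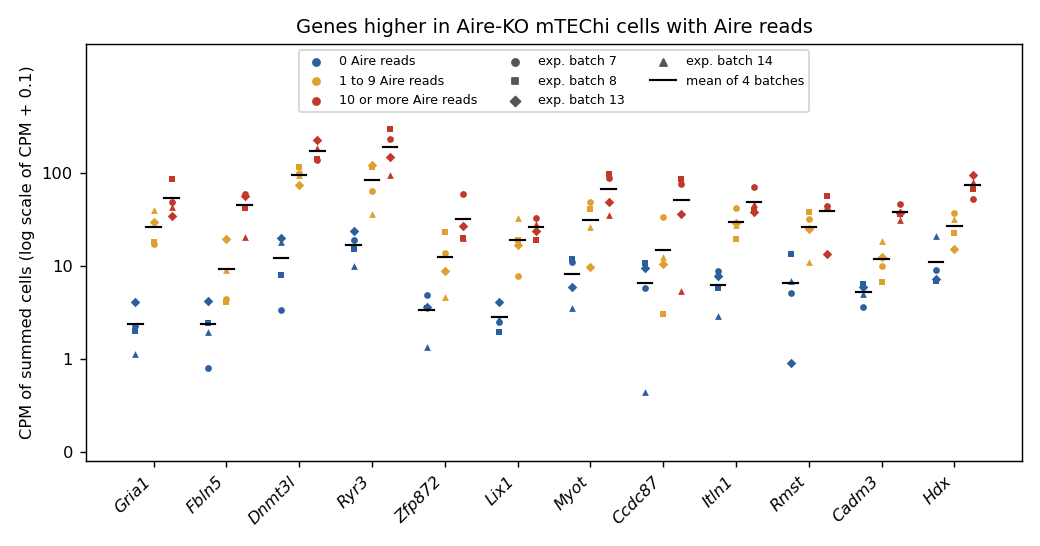
Summed CPM (log scale of CPM + 0.1) of the 12 named genes that rose, for Aire-KO mTEChi cells with 0, 1 to 9 and 10 or more Aire reads; each point is 1 exp. batch and the bars are means of 4 batches. For Gria1 the means climb from 2.28 over 26.5 to 53.6 CPM. The middle class lies between the other 2 for each gene, a likely place for genes chosen by the distance between those 2.

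Dnmt3l, a catalytically inactive partner of the DNA methyltransferases, had 139, 144, 228 and 186 CPM in cells with Aire reads and 3.29, 7.95, 19.9 and 17.9 CPM in cells without. It rose by 4.19 ± 0.38 in log2 units (adjusted p = 0.0361) and was read in 122 of 127 cells with, 75 of 90 with few and 61 of 121 without Aire reads. Because Dnmt3l and Aire overlap on opposite strands and RamDA-seq reads were counted without strand, reads of the 2 genes in the shared bases cannot be told apart. Of 22 tested neighbours with a start within 300 kb of that of Aire, Dnmt3l was the only one to pass the adjusted threshold, against 0.672% of all genes. Icosl, the ligand of the T cell costimulator ICOS, lies next to Dnmt3l; its values were 832, 1113, 1117 and 1310 CPM with Aire reads and 254, 344, 611 and 800 CPM without (log2 fold change 1.35 ± 0.21, adjusted p = 0.0578). For Trpm2, a calcium channel gene on the other side of Aire, the log2 fold change was 3.05 (adjusted p = 0.0806), and for Pfkl, the nearest tested gene on that side, it was 0.18 (adjusted p = 0.701). The noncoding RNA Gm47922 and Lrrc3 had log2 fold changes of 2.31 and 1.59 (adjusted p = 0.0629 and 0.0788), without overlap between the classes. Every tested neighbour except n-R5s77 (−0.31, adjusted p = 0.906) had a log2 fold change above 0.

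Several of the named genes that fell belong to barrier epithelia. Krtdap, a keratinocyte differentiation protein, had 4 reads in all cells with Aire reads together and 2993 in cells without. Its level without Aire reads was 23.3, 77.5 and 33.0 CPM in exp. batches 7, 8 and 13 but 0.207 CPM in batch 14, where it was nearly absent from both classes. Reads of Krtdap came from 4 of 127 cells with and 24 of 121 cells without Aire reads (fitted log2 fold change −9.57 ± 0.43, adjusted p = 0.0229).

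Spink5, a protease inhibitor of the skin barrier, was also nearly absent in batch 14. Cells without Aire reads held 246, 356, 289 and 1.18 CPM in exp. batches 7, 8, 13 and 14, and cells with Aire reads 3.80, 2.45, 0.598 and 0.0636 CPM. Within every batch the cells without Aire reads were higher, yet batch 14 lay below 2 of the values with Aire reads, so the classes overlap (log2 fold change −7.13 ± 0.69, adjusted p = 0.0361). Elovl4, which makes the very long fatty acids of the skin barrier, stood at 71.6, 69.2, 86.6 and 4.49 CPM without Aire reads and at 1.28, 0.627, 2.53 and 0 CPM with them (−5.91 ± 0.49, adjusted p = 0.0361).

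Others are enzymes and transporters. Ces2e, a carboxylesterase of liver and gut, had 246, 113, 110 and 6.05 CPM in cells without Aire reads and 1.39, 0.114, 0.0460 and 0 CPM in cells with them (log2 fold change −8.90 ± 0.73, adjusted p = 0.0361); 1 cell held 78% of its 54 reads in the latter. Xdh, xanthine dehydrogenase, fell from a mean of 307 to 19.0 CPM (−3.95 ± 0.29, adjusted p = 0.0361) and Abcc3, an organic anion exporter, from 86.8 to 7.11 CPM (−3.46 ± 0.31, adjusted p = 0.0361). For both genes the 2 sets of batch values do not overlap. Cpe, carboxypeptidase E of the hormone-processing pathway, was read in 12 of 127 cells with and 26 of 121 without Aire reads and fell by 8.05 ± 0.75 in log2 units, with overlapping levels. Sdr16c6, Chil4, Anxa13, Psapl1 and Clmn completed the named genes that fell, by fitted log2 values of −9.60 to −3.27.

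**Figure D3:**
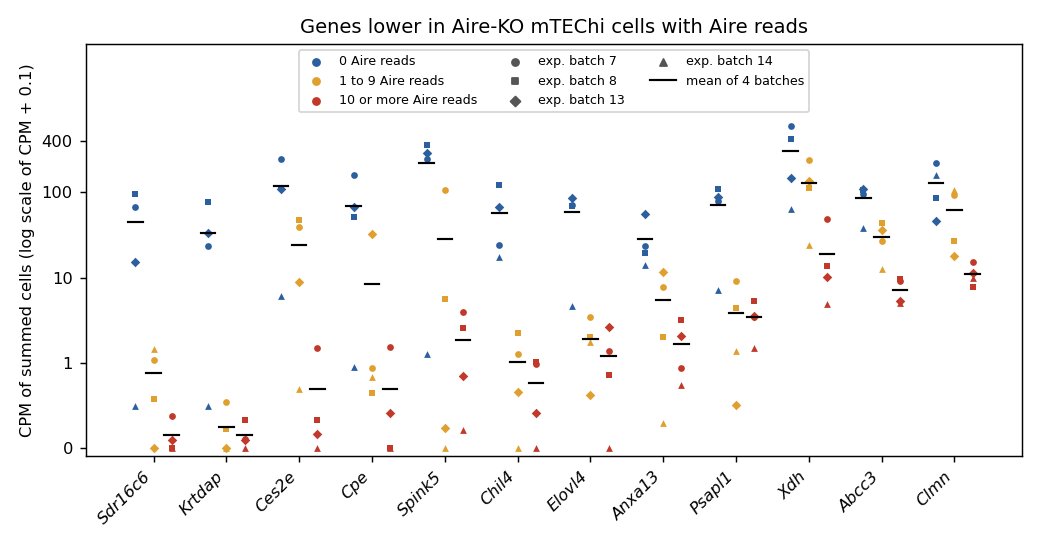
Summed CPM (log scale of CPM + 0.1) of the 12 named genes that fell, for Aire-KO mTEChi cells with 0, 1 to 9 and 10 or more Aire reads; each point is 1 exp. batch and the bars are means of 4 batches. In cells with 0 Aire reads exp. batch 14 lies far below the other batches for Sdr16c6, Krtdap, Cpe and Spink5, while for Clmn it lies among them.

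The 90 cells with 1 to 9 Aire reads took no part in choosing these genes or in the test. For all 100 genes that rose, the mean level over batches in those cells lay between that of the cells without and that of the cells with Aire reads. Their median level over the 100 genes was 98.9 CPM, against 157 CPM with and 47.6 CPM without Aire reads. The same held for 73 of the 74 genes that fell, with medians of 13.9, 35.3 and 72.5 CPM for cells with, with few and without Aire reads. All these genes were chosen by the distance between the cells with and the cells without Aire reads. A middle place for the cells with few was therefore likely and is not independent support. The same count was not made over all tested genes.

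Genes of the MHC class II pathway, whose protein was used in the sort, were read in both classes. By edgeR none of the 11 genes of the list passed the adjusted threshold; 10 had an unadjusted p under 0.05 and all of those were higher with Aire reads, against 11.6% of all genes. The median log2 fold change of the list was 0.66. Ciita, the transactivator of the pathway, measured 836, 1015, 1103 and 1164 CPM with Aire reads and 334, 429, 745 and 768 CPM without, in exp. batches 7, 8, 13 and 14, 2 sets that do not overlap (1.03 ± 0.17, adjusted p = 0.0615). H2-Ob, a chain of the H2-O regulator of peptide loading, had the largest estimate (1.25 ± 0.28, adjusted p = 0.0962). The summed level of the list was 7757 to 10570 CPM with and 5623 to 7053 CPM without Aire reads. H2-DMb2, a paralogue of a list member picked after its values were seen, did pass (0.97 ± 0.12, adjusted p = 0.0465), and reads shared with the near-identical H2-DMb1 make its share uncertain.

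Of 10 tested genes of costimulation and mature mTECs 1 rose and 0 fell, against 0.386% and 0.286% of all genes, 8 were higher at an unadjusted p under 0.05, against 11.6%, and the median log2 fold change was 1.21. The one that passed was Tnfrsf11b, the RANKL decoy receptor osteoprotegerin, with 168, 276, 223 and 452 CPM with Aire reads and 86.3, 98.7, 110 and 218 CPM without (1.23 ± 0.15, adjusted p = 0.0465). It was higher in each batch, while the levels of different batches overlap. Cd80, the CD28 ligand that marks mature mTECs, gave 375, 268, 425 and 354 CPM against 210, 188, 221 and 148 CPM (0.99 ± 0.17, adjusted p = 0.0639). Fezf2, a second regulator of tissue antigens in mTECs, stood at a mean of 426 CPM with and 314 CPM without Aire reads (0.54 ± 0.11, adjusted p = 0.0820). Both classes thus held Cd80, Fezf2 and MHC class II transcripts, as the mTEChi label implies, and the summed level of the list did not overlap between them (2756 to 3376 CPM with, 1239 to 2032 CPM without).

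Regulators of the Aire gene itself gave no called gene among 17. At an unadjusted p under 0.05 by edgeR 6 were higher and 3 lower, against 11.6% and 8.66% of all genes, and the median log2 fold change was 0.37. In cells with Aire reads the lymphoid factor Tcf7 had 300, 402, 346 and 417 CPM and in cells without 34.7, 65.9, 160 and 104 CPM. The classes stood apart, but the change missed the threshold (2.31 ± 0.35, adjusted p = 0.0555). For the noncanonical NF-kB genes Nfkb2 and Relb the log2 fold changes were 0.72 ± 0.12 and 0.70 ± 0.14 (adjusted p = 0.0594 and 0.0821). For the receptor genes Tnfrsf11a (RANK) and Cd40 they were 0.51 and 1.2 (adjusted p = 0.0999 and 0.103), and for Ltbr, the lymphotoxin receptor, −1.13 (adjusted p = 0.0635). Among 24 genes of known Aire partner proteins none was called either. The median of that list was −0.21, with 17 genes below 0, and at an unadjusted p under 0.05 there were 7 lower and 1 higher, against 8.66% and 11.6% of all genes. The deacetylase gene Sirt1 had the largest estimate, with a mean of 1371 CPM with and 422 CPM without Aire reads (2.00 ± 0.32, adjusted p = 0.0587).

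**Figure D4:**
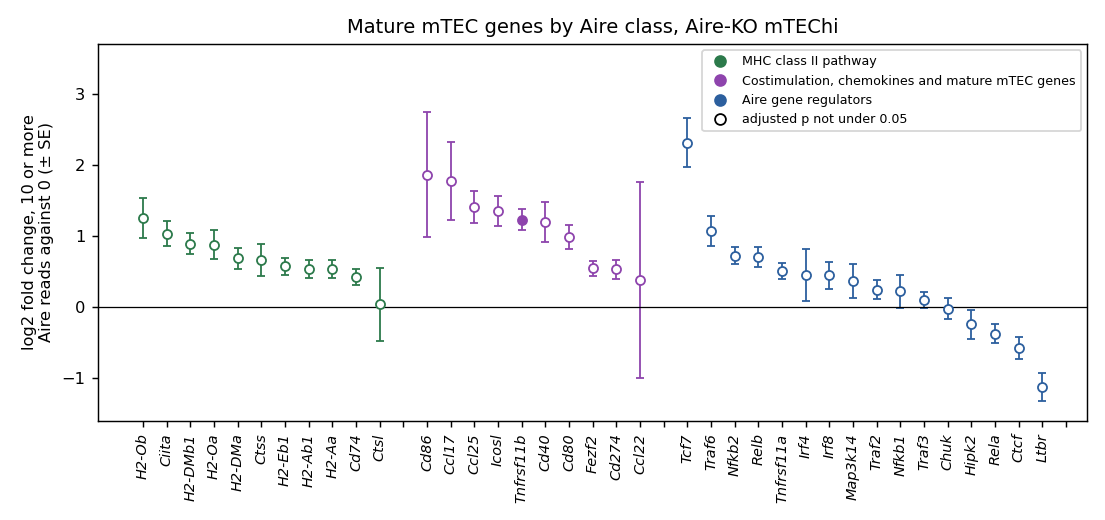
Log2 fold change (± approximate SE) of the tested MHC class II, mature mTEC and Aire regulator genes, in Aire-KO mTEChi cells with 10 or more Aire reads against cells with 0. Open circles missed the adjusted threshold and a gene in several lists is drawn once. Only Tnfrsf11b is filled, and Ltbr is lowest at −1.13.

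Of 14 Polycomb repressive complex and H3K27 demethylase genes 1 rose, against 0.386% of all genes. The list had 8 genes below 0 and a median of −0.16. At an unadjusted p under 0.05 there were 5 lower and 4 higher, against 8.66% and 11.6% of all genes. Jarid2, a cofactor that helps recruit the complex to chromatin, had 718, 627, 555 and 646 CPM with Aire reads and 226, 259, 310 and 275 CPM without (1.35 ± 0.16, adjusted p = 0.0465), with no overlap. The core subunit genes Ezh2, Eed and Suz12 had log2 fold changes of 0.63, −0.03 and −0.49, none of them called.

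Of 23 listed tissue-restricted antigens 12 had enough reads to be tested; 0 rose and 1 fell, against 0.386% and 0.286% of all genes. The median log2 fold change of the 12 was 1.55, 8 were above 0, and with no adjustment 3 that were higher and 1 that was lower had a p under 0.05, against 11.6% and 8.66% of all genes. The list summed to 942 to 1198 CPM with and 301 to 549 CPM without Aire reads, sums that did not overlap. Ins2, Rbp3, Nts, Tectb and Mup20 had 0 reads in all 3 classes of mutant cells. Csn2, the milk protein beta-casein, held most of those sums, with 852, 847, 958 and 1115 CPM with Aire reads and 312, 236, 510 and 307 CPM without (1.62 ± 0.22, adjusted p = 0.0506). Gad1, the GABA-synthesizing enzyme and a diabetes autoantigen, was read in 75 of 127 cells with and 17 of 121 without Aire reads (3.7 ± 1.18, adjusted p = 0.172). Ttr, the thyroxine carrier transthyretin, fell from 46.1, 16.1, 0.911 and 0.415 CPM without to 2.08, 0.114, 0.0230 and 0 CPM with Aire reads (−5.39 ± 0.65, adjusted p = 0.0465); single cells held 69% of its reads without and 72% of those with Aire reads.

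The keratinocyte list had the lowest median log2 fold change of all lists, −3.48. Of 14 tested genes 2 fell (Krtdap and Spink5, above) and 0 rose, and 8 had an unadjusted p under 0.05 and were lower, against 8.66% of all genes. Summed over the list, cells without Aire reads held 806, 1336 and 987 CPM in exp. batches 7, 8 and 13 and 100.0 CPM in batch 14. Cells with Aire reads held 147, 160, 106 and 128 CPM in the same order, so in batch 14 alone the cells without were the lower ones. The signal came from some of the cells: 9 of 23, 9 of 35, 4 of 20 and 3 of 43 cells without Aire reads reached 500 CPM over the list, against 1 of 33, 0 of 27, 0 of 41 and 1 of 26 with them.

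In exp. batch 14 the cells without Aire reads were instead rich in cell cycle transcripts. The cell cycle list summed to 2189 CPM there, against 195, 574 and 219 CPM in batches 7, 8 and 13, and 20 of 43 cells reached 500 CPM, against 1 of 23, 1 of 35 and 1 of 20. Mki67, a marker of cycling cells, stood at 403 CPM in that class and at 8.01 CPM in the batch 14 cells with Aire reads. Over the 4 batches none of the 26 cell cycle genes was called. Genes of immature mTECs and progenitors were highest in the same cells, with a summed 3276 CPM, against 1276 to 2512 CPM in the other batches without and 1376 to 1657 CPM with Aire reads; 0 of 12 were called, 5 were lower at an unadjusted p under 0.05 and 1 was higher, against 8.66% and 11.6% of all genes. Krt14, a basal keratin, had 83.4, 188, 64.8 and 282 CPM without Aire reads and 34.1, 27.2, 31.0 and 43.2 CPM with them (−1.86 ± 0.35, adjusted p = 0.0718). The part of these cell types in the genome-wide result was tested only by leaving out the cells mentioned above.

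**Figure D5:**
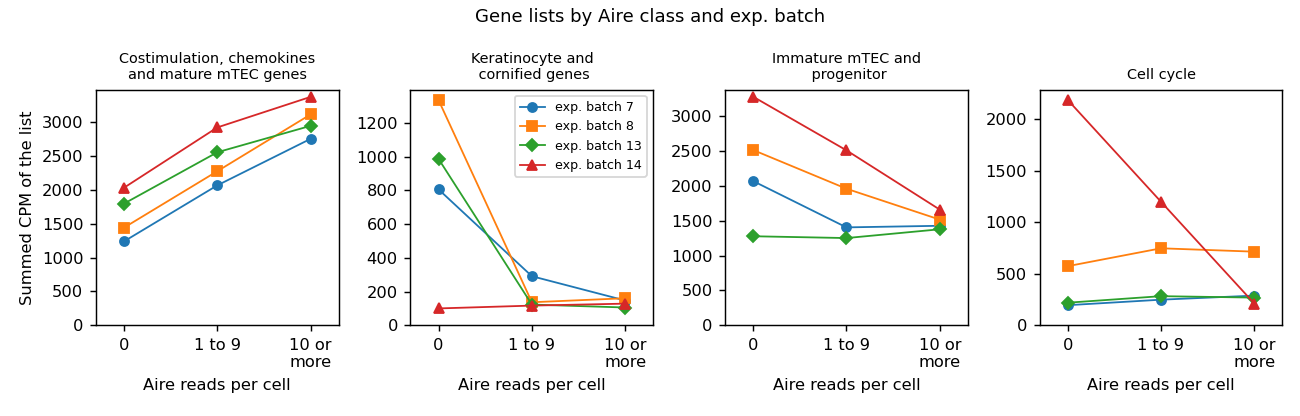
Summed CPM of 4 gene lists in Aire-KO mTEChi cells with 0, 1 to 9 and 10 or more Aire reads, 1 line per exp. batch, linear axes from 0 and Aire itself left out. The mature mTEC list climbs in each batch, the keratinocyte list starts at 806 to 1336 CPM in batches 7, 8 and 13 and drops from there, and the cell cycle list stands at 2189 CPM in batch 14 cells with 0 Aire reads.

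Lists for other cell types gave few calls. Of 10 tested enterocyte and hepatocyte genes 1 rose and 0 fell, against 0.386% and 0.286% of all genes. The median log2 fold change of that list was −1.715, with 7 genes below 0 and 3 above. At an unadjusted p under 0.05 by edgeR 3 were lower and 2 higher, against 8.66% and 11.6% of all genes. Its sums ran from 512 to 681 CPM with and from 324.5 to 1561 CPM without Aire reads. In the general epithelial list 1 gene of 8 fell and 0 rose, against 0.286% and 0.386% of all genes. The gene was Epcam, the surface protein used in the sort, which fell from 450, 360, 288 and 386 CPM without to 184, 169, 163 and 147 CPM with Aire reads (−1.05 ± 0.14, adjusted p = 0.0498). The list median was −0.64, with 6 genes below 0, and 3 were lower and 0 higher at an unadjusted p under 0.05 by edgeR. Its sums did not overlap, at 1522 to 1848 CPM with and 2012 to 2400 CPM without Aire reads. Of the tuft, microfold, neuroendocrine, ciliated, muscle, cTEC and stress lists 0 genes were called. Their median log2 fold changes ran from −0.38 (tuft) to 1.42 (muscle), with 1.26 for cTEC genes such as Foxn1 (1.16 ± 0.19, adjusted p = 0.0615). The cTEC list had 9 of its 10 tested genes above 0 and 1 below. With no adjustment, 5 of the 10 had an edgeR p under 0.05 and all of those rose, against 11.6% of all genes. Summed cTEC levels did not overlap between the classes, at 1474 to 2134 CPM with and 698.8 to 1158 CPM without Aire reads. Blood cell genes (18 tested) and fibroblast and endothelial genes (8 tested) also gave 0 calls, with medians of 0.89 and 0.97. In exp. batches 7, 8, 13 and 14 the summed blood list stood at 309, 327, 396 and 557 CPM with and at 380, 314.5, 247.5 and 93.1 CPM without Aire reads. In batch 14, 13 of 26 cells with and 3 of 43 without Aire reads reached 500 CPM over the list, and in batch 7, 6 of 33 and 7 of 23. Of the 18 blood cell genes 11 were above 0 and 7 below. At an unadjusted p under 0.05 by edgeR 3 were higher and 1 lower, against 11.6% and 8.66% of all genes. Cd3d, Cd3e and Ptprc each averaged under 8 CPM in both classes, so other listed genes held most of the average sum.

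The named genes that rose were not at one common distance from adult WT mTEChi. Gria1 averaged 10.1 CPM over the 9 WT batches (range 5.03 to 23.8), below each of the 4 mutant sums with Aire reads. Cadm3 averaged 49.3 CPM in WT (14.9 to 73.9), a range that includes the mutant values with Aire reads. Among the genes that fell, Spink5 averaged 85.2 CPM in WT (36.5 to 151), a range above all 4 sums with Aire reads. These levels were set side by side without a test, since genotype and exp. batch cannot be told apart in them.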

How the data were processed

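Single cells were sorted and sequenced by RamDA-seq, and each column of the deposited table is 1 cell. To make these counts the authors cleaned reads with fastp 0.20.0, mapped them to mm10 with STAR 2.7.3a, filtered with SAMtools 1.9, removed duplicates with Picard 2.21.1 and counted reads per gene with HTSeq 0.11.2 without strand. Their length-scaled table was not used here. No row without a gene entered the sums.

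Raw counts were summed over the cells of each exp. batch and Aire class (15727333 to 43496896 reads a sum). The 8 sums were compared with edgeR 4.0.16 in R 4.3.3 (quasi-likelihood test, TMM, filterByExpr, terms for exp. batch and class, 3 residual degrees of freedom, 2-sided, Benjamini-Hochberg adjusted p under 0.05). The exp. batch is the block because each batch holds both classes, so the sums pair within it. The approximate SE after ± is the size of the log2 fold change divided by the square root of the F statistic of the edgeR test. It can understate the uncertainty where 1 class holds few reads, as for Krtdap with 4. CPM are counts per total reads of a sum, averaged over 4 batches with equal weight. Intervals of shares are exact binomial at 95% and, like limits from a count of 0 (3 counts), cover counting error only. In data simulated from these sums (24661 genes) edgeR called 4% of genes changed by a log2 value of 1, 80% at 2, and 100% at 3 and at 4, and 8 of 24461 unchanged genes. The changed genes were drawn only from those with an average of 20 CPM or more, and no difference between batches was simulated. These shares therefore do not carry over to genes of lower level or to the real spread. In the real data Trpm2, at a log2 fold change of 3.05, was not called.

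Named genes were the 12 per direction with the largest log2 fold change among called genes with at least 20 CPM in the higher class and 1 direction in 4 of 4 batches, predicted genes and pseudogenes passed over. The cells, the gene lists and the tests were chosen with earlier results of these data known. A planned comparison of the same classes in adult WT mTEChi, and the test of its difference from Aire-KO, were not made because 0 of 620 WT cells had 0 Aire reads. Alternatives used DESeq2 1.42.0, limma 3.58.1 on mean log2(CPM + 1), other Aire limits, thinned cells and each batch left out; leaving out keratinocyte-rich or cycling cells (500 CPM or more over a list) was chosen after seeing the data. One listed gene is not reported here.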

Additional observations from a re-analysis of the deposited data

Results flagged for a closer look

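Among 54 sets of 4 batch values (the named genes by class, the depth and detected genes per class, and the class shares), 4 held a value that stood far from the rest, where chance gives about 1 in 20. Hdx, a homeobox gene that rose, measured 20.84 CPM in the cells without Aire reads of exp. batch 14, against 6.858 to 8.931 CPM in the other batches, and still lay below all 4 sums with Aire reads. For 3 genes that fell, the cells with Aire reads of exp. batch 7 were high for their class. Sdr16c6 stood there at 0.1386 CPM (0 to 0.02299 elsewhere), Ces2e at 1.386 CPM (0 to 0.1139 elsewhere) and Cpe at 1.414 CPM (0 to 0.1609 elsewhere). All 3 remained below the cells without Aire reads of the same batch.

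Outside the compared cells, 7.79% of adult WT cTEC cells (6 of 77, exact interval 2.91 to 16.2) held 10 or more Aire reads, against 0 of 154 Aire-KO mTEClo cells. These cTEC cells come from 1 exp. batch of male mice of 6 weeks, and the difference was not tested.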

How the results depend on the processing

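The number of calls depended strongly on the setting, while the called genes that could be tested kept their direction in all 16 alternative fits. Those fits share cells with the fit that chose the genes, so kept directions were likely and are not independent support. Genes that rose and fell numbered 100 and 74 as reported, 2381 and 1658 by DESeq2, 63 and 56 with RLE size factors, 280 and 179 with no filter beyond 1 read, and 1753 and 875 by limma. With other Aire limits they numbered 8 and 9 (1 read), 3 and 2 (5 reads), 2 and 9 (20 reads) and 235 and 180 (20 CPM). In cells of 600000 or more reads they numbered 0 and 1, with 4402 genes at an unadjusted p under 0.05, and after thinning each cell to 200000 reads 642 and 406. Without the replicate block of exp. batch, which pairs the classes, they numbered 443 and 301. Without the keratinocyte-rich or cycling cells, an alternative chosen after seeing the data, both were 0. Leaving out each batch in turn gave 0 to 0 genes in either direction by edgeR, with 3293 to 4851 at an unadjusted p under 0.05 and a smallest adjusted p of 0.0591 to 0.213. The cause of these shifts was not tested. The difference in detected genes per cell turned from −18.4 to 125.75 with a limit of 1 read and to 65.875 in thinned cells, all within the spread between batches. The share of cells with Aire reads moved from 37.6% to 27.2% with a limit of 20 CPM and to 52.1% for any read after thinning. Of the log2 fold changes of single genes followed over the alternatives, 469 stayed on their side of the threshold, 21 passed it where they had not, 220 no longer passed it and 0 reversed. Of the 23 peripheral antigens 11 had too few reads to be tested at this depth.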
